A study of Mus musculus with 6 samples.

Results

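The genes described are the metalloproteinases of the extracellular space and their tissue inhibitors, in primary lung endothelial cells of mice labelled knockout or wild type for Zmpste24. Every row of the deposited table whose symbol is Mmp, Timp, Adam or Adamts followed by a number was taken, and 51 of these 79 rows averaged 10 or more normalized counts and form the members. They are 19 Mmp, 15 Adam, 13 Adamts and 4 Timp genes, out of 15229 genes that reached the same mean and 53735 in the table. The members with the lowest means were Mmp25 (11.8) and Mmp1a (11.3), and the rows just under the minimum were Adamts17 (8.41) and Adam4 (7.12). Of the 28 rows below it, 14 were at 0 in all 6 libraries, and all of these were Adam genes.

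The series has 4 libraries labelled knockout (KO1 to KO4) and 2 labelled wild type (WT1 and WT2) for Zmpste24, the gene of the metalloprotease that completes the processing of prelamin A. Cells of both genotypes were selected with beads that bind CD31 and ICAM2, and were kept in primary culture to confluence, unpassaged and untreated. The mice came from 2 cohorts, and the labels give no cohort, age, sex or strain for a library, nor the deleted part of the gene. No label says that each library is a separate animal, so the error behind each p-value is that among libraries and may be technical only.

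Metalloproteinases are enzymes that hold a zinc ion in the active site and cut proteins of the matrix or of the cell surface. The matrix metalloproteinases (MMPs) are made as inactive precursors, cut collagens, laminins, proteoglycans and growth factor carriers, and act in vessel sprouting, inflammation and remodelling of the lung. The ADAM proteases sit in the membrane and release the outer parts of receptors and ligands, the secreted ADAMTS proteases trim procollagens and proteoglycans, and the tissue inhibitors of metalloproteinases (TIMPs) bind and block the active enzymes.

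The libraries summed to 37188391 to 42484985 normalized counts, and the 5 whose whole reads were recovered (all but KO4) to 32699024 to 45613685 reads. KO1 and WT1 stood apart from the other 4 libraries across the transcriptome, with r = 0.978 to 0.990 across genes within these 2 sets of libraries and 0.908 to 0.935 between them. Genes are not independent replicates. Each of the 2 sets holds both genotypes, so results are given with genotype alone and with an added term for the set, called set-adjusted here. WT1 is the only WT library of its set, and WT2 is the only WT library of the other. Set-adjusted errors therefore hold no spread between WT libraries of the same set. The summed normalized counts of 7 endothelial markers were 84143 in KO1 and 30034 to 49071 in KO2 to KO4, against 144356 in WT1 and 44298 in WT2, with 0 of them at 0 throughout. Those of 7 macrophage markers were 1388 in KO1 and 26855 to 43427 in KO2 to KO4, against 1650 in WT1 and 29074 in WT2. Those of 6 fibroblast markers, mostly collagen counts, ran from 401577 to 463287 in KO and from 411145 to 470819 in WT libraries. Among them Pdgfra split by set, with 3946 in KO1 and 34290 to 69228 in KO2 to KO4, against 5842 in WT1 and 39694 in WT2, and so did Lum, with 555 in KO1 and 1201 to 2616 in KO2 to KO4, against 359 in WT1 and 2318 in WT2. Dcn and Col3a1 were also lower in KO1 and WT1 than in the other 4 libraries, and Col1a2 overlapped. Col1a1 went the other way, with 132850 in KO1 and 78891 to 101240 in KO2 to KO4, against 173437 in WT1 and 109886 in WT2. Smooth muscle markers (5 genes) summed to 198643 in KO1 and 49491 to 91814 in KO2 to KO4, against 215871 in WT1 and 53112 in WT2. Mesothelial markers (5 genes) summed to 61241 in KO1 and 8550 to 16269 in KO2 to KO4, against 26485 in WT1 and 16682 in WT2. In such cultures, fewer cells of a type and less RNA per cell cannot be told apart. Zmpste24 itself had 5079, 3764, 3599 and 3720 normalized counts in KO1 to KO4, against 5503 and 4148 in WT1 and WT2, so levels summed along the gene gave no check of the labels.

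A run of 8 neighbouring MMP members on chromosome 9 (GRCm38, 7272514 to 7581885, GENCODE release M21) holds members with a wide spread between libraries. Their order is Mmp13, Mmp12, Mmp1b, Mmp3, Mmp1a, Mmp10, Mmp8 and Mmp27, on the plus strand except Mmp1b. The promoters of Mmp13, Mmp3, Mmp10 and Mmp8 are shown because these abundant neighbours did not go up and down together. Each runs from 250 bases before to 50 bases after the start site, on the plus strand, from RefSeq (GRCm38.p6). Capitals mark the letters TGANTCA, the recognition motif of the transcription factor AP-1, which reads alike on both strands.
Mmp13, chr9:7272264-7272563: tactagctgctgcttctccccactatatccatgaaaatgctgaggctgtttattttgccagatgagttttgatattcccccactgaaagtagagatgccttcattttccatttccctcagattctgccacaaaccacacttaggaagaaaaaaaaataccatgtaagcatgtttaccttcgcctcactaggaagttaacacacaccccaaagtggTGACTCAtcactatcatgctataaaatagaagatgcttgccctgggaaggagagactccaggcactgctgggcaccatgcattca
Mmp3, chr9:7445572-7445871: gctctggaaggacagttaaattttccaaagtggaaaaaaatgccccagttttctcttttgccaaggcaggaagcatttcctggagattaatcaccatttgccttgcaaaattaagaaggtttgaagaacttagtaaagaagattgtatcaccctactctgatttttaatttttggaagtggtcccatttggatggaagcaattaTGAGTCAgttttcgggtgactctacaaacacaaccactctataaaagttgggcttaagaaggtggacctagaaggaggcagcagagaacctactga
Mmp10, chr9:7502092-7502391: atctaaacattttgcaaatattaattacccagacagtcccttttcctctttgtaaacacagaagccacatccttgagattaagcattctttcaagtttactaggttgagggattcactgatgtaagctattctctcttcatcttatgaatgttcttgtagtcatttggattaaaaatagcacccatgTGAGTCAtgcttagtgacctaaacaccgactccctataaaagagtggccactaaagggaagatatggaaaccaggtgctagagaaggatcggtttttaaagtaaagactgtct
Mmp8, chr9:7558179-7558478: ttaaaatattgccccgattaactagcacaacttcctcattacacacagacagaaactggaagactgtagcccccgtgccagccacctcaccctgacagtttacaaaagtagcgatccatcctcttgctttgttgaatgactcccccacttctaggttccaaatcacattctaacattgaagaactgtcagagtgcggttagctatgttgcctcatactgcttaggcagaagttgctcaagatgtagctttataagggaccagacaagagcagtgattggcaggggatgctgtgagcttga

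The motif began 35 bases before the start site in Mmp13, 46 bases before it in Mmp3 and 63 bases before it in Mmp10, and these letters were not in the window of Mmp8. Of the 33 members with a promoter in the RefSeq table, 7 had the motif in at least 1 listed promoter (21.2%). These 7 were Adam19 and 6 members of the chromosome 9 run, Mmp13, Mmp12, Mmp1b, Mmp3, Mmp1a and Mmp10. Among all 32851 promoters of the same length, 7.81% held it, and 6.69% of the 10375 tested genes with a promoter had it. A match describes the letters alone and is not a measured binding site.

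The 3 abundant inhibitor genes were among the most strongly read members. Per kilobase of merged exons, Timp1 had 14574 to 45503 normalized counts over the 6 libraries, the highest mean level among the members. On the same scale Timp2 had 7025 to 19874, the proteoglycanase gene Adamts1 had 3882 to 16198, Adam9 had 4863 to 10160 and Timp3 had 2853 to 10566. Mmp14, the highest MMP gene, had 3195 to 4267 per kilobase. In this order each range overlapped that of the next gene. Within every library Timp1 was above Timp2, while the order of the other neighbours changed between libraries, so those are not told apart.

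**Figure D1:**
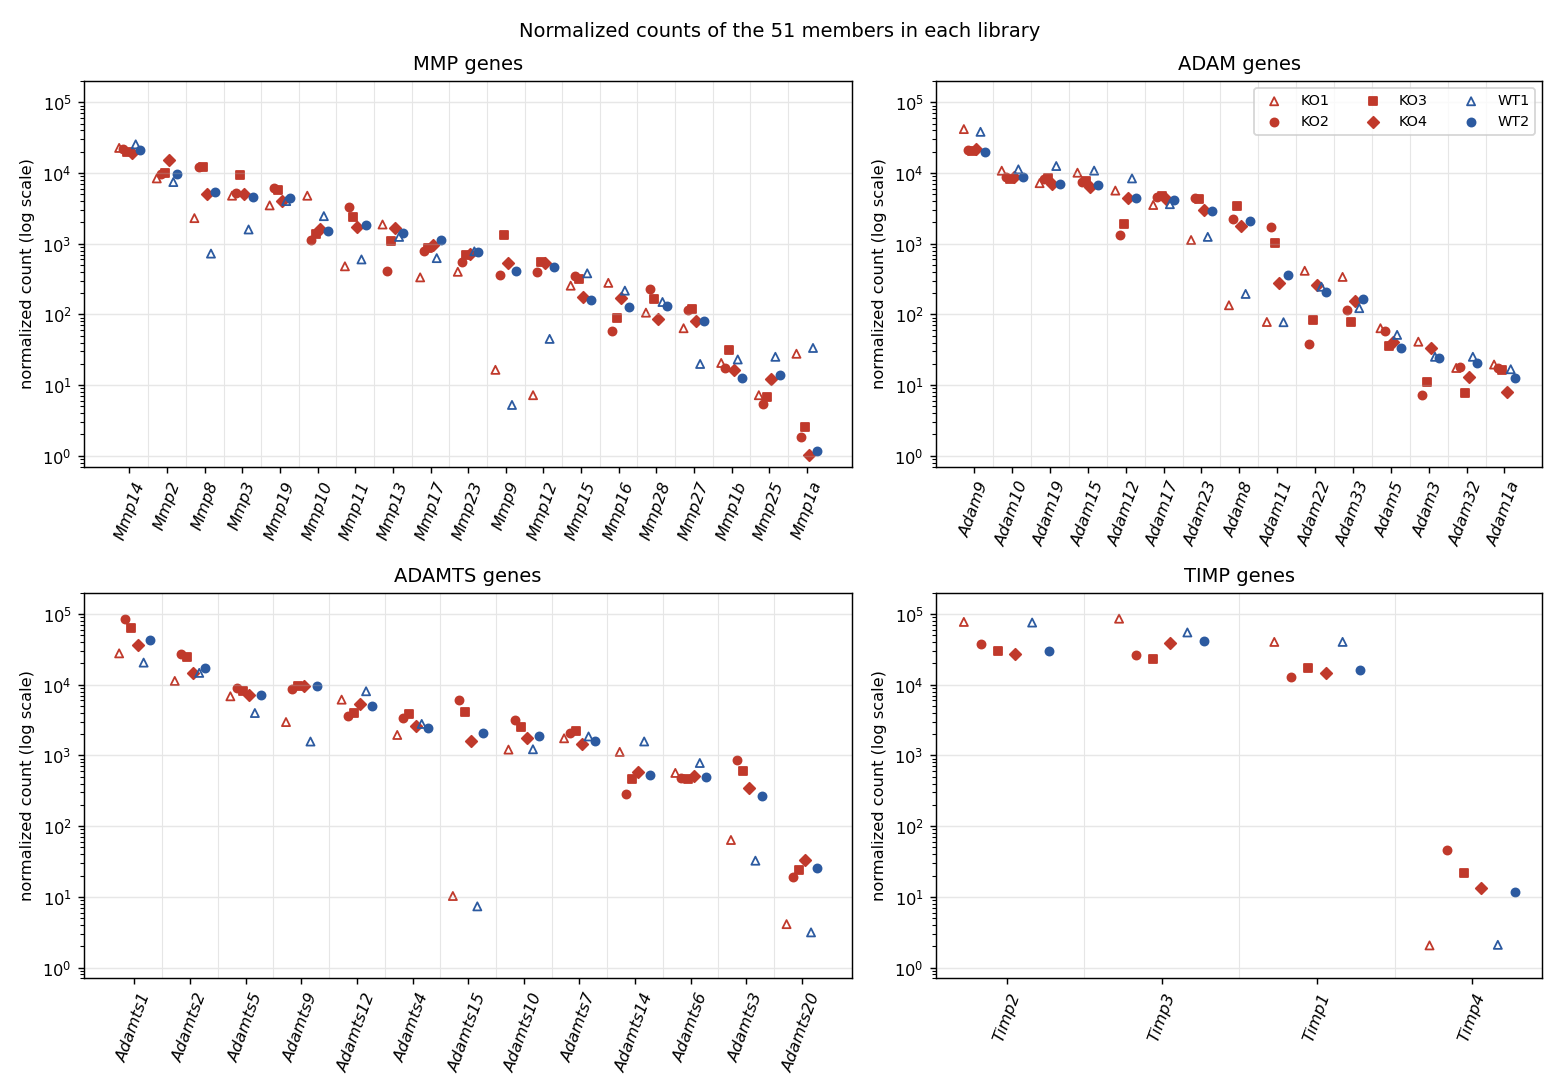
Normalized counts (log axis) of the 51 members in KO1 to KO4 (red) and WT1 and WT2 (blue), by family and ordered by mean; open triangles are KO1 and WT1. KO1 and WT1 lie together and away from the other 4 libraries in many members, such as Adamts15 (10.3 and 7.33 against 1584 to 6095), while red and blue symbols mix.

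With limma, the main test, 0 of 51 members passed at an adjusted p under 0.05, over all genes tested, where 0.00657% of all tested genes (1 of 15229) passed. The set-adjusted limma fit also called 0 members, with the same share of all genes. EdgeR and DESeq2 were run on the recovered reads of 5 libraries, without KO4. With genotype alone both called 0 members, edgeR against 0% of all genes (146 genes had an unadjusted p under 0.05) and DESeq2 against 0.0394%. Set-adjusted edgeR called 0 members, against 0.00657%. Set-adjusted DESeq2 alone called 4 members (7.84%, against 0.939% of all tested genes), with Mmp8, Adamts3 and Adamts15 higher and Adam12 lower, and gave no adjusted p for another 4. On the same 5 libraries set-adjusted limma and edgeR called 0 of these, at limma adjusted p = 0.504 to 0.687 and edgeR adjusted p = 0.551 to 0.640. KO4, the library left out there, lay on the other side of WT2 than KO2 and KO3 for Mmp8, Adamts15 and Adam12. With KO4 kept, the set-adjusted limma differences of all 4 genes were smaller and their errors larger (1.12 ± 0.45 with KO4 and 1.39 ± 0.13 without it for Mmp8, log2, SE). The 4 calls therefore come from 1 tool on 5 libraries only, and no count-based fit with KO4 is given.

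An unadjusted p under 0.05 was reached by 1 member, Mmp25, with genotype alone in limma (1.96%, against 0.939% of all tested genes), in edgeR (against 0.959%) and in DESeq2 (against 1.57%). Set-adjusted, 6 members reached it in limma (11.8%, against 3.51% of all genes). On 5 libraries 12 reached it in set-adjusted edgeR (23.5%, against 6.88%) and 13 in set-adjusted DESeq2 (25.5%, against 5.75%). The 6 with limma were Adamts3, Adamts5, Mmp8, Mmp17, Mmp23 and Mmp25. The median log2 difference of the members was 0.09 with genotype alone, with 28 above 0 and 23 below, and 0.08 set-adjusted. Against the WT library of its set, the member median was −0.02 in KO1, 0.14 in KO2, 0.18 in KO3 and 0.01 in KO4, beside −0.02, 0.01, 0.00 and 0.00 over all tested genes. KO2, KO3 and KO4 share WT2 in these differences.

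The KO and WT libraries did not overlap in 4 members (7.84%, against 4.68% of all tested genes). Mmp3 was higher (1.96%, against 2.36%), and Mmp23, Mmp25 and Adam32 were lower (5.88%, against 2.32%). All 4 KO libraries lay above the WT library of their set in 7 members (13.7%, against 10.1% of all tested genes), which were Adam9, Mmp2, Adamts5, Mmp3, Adamts3, Mmp27 and Adam5. All 4 lay below it in Mmp17, Mmp23, Mmp25 and Adam32 (7.84%, against 10.8%).

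**Figure D2:**
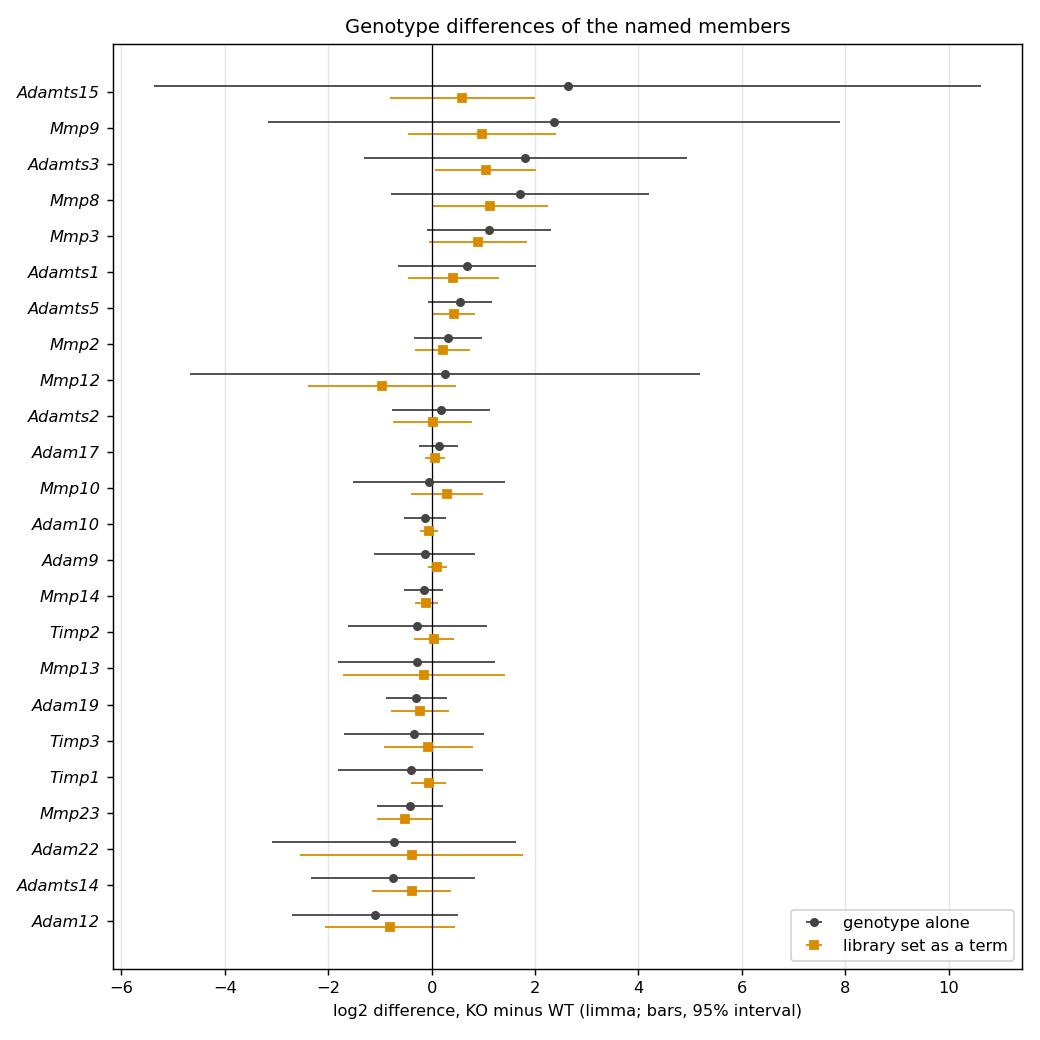
Log2 difference, KO minus WT, of the 24 named members that averaged 50 or more normalized counts, from limma with genotype alone (circles) and set-adjusted (squares); bars are 95% intervals. With genotype alone every interval of these 24 members includes 0; set-adjusted, those of Adamts3 (0.07 to 2.02), Adamts5 (0.03 to 0.83), Mmp8 (0.0014 to 2.24) and Mmp23 (−1.05 to −0.00062) do not.

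Mmp3 encodes stromelysin-1, which cuts proteoglycans and activates other MMP precursors. It had 4777, 5155, 9488 and 4982 normalized counts in KO1 to KO4, against 1589 and 4607 in WT1 and WT2. Every KO library lay above both WT libraries, with KO3 highest, and KO2 and KO4 were close to WT2. The log2 difference was 1.11 ± 0.49 (SE; limma adjusted p = 1.00), and 0.90 ± 0.38 when set-adjusted (limma adjusted p = 0.999). Against the WT library of the set it was 1.59 in KO1 but 0.16, 1.04 and 0.11 in KO2 to KO4, and it was 0.34 without WT1. The Mmp3 transcript matched that of the predicted gene Gm15242 at 95.4% over 284 nt, so reads there may be shared.

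Mmp10, the gene of stromelysin-2, stands 2 genes further along the chromosome and had another pattern. It had 4773, 1140, 1379 and 1603 normalized counts in KO1 to KO4, against 2454 and 1509 in WT1 and WT2. KO1 was the highest library and KO2 the lowest, so the genotypes overlapped fully. The log2 difference was −0.05 ± 0.60 with genotype alone and 0.29 ± 0.28 when set-adjusted (SE, limma). Mmp13, which encodes a collagenase of fibrillar collagen, had 1868, 405, 1091 and 1647 counts in KO1 to KO4, against 1248 and 1401 in WT1 and WT2. KO2 was the lowest library and KO1 the highest, on either side of both WT libraries (log2 difference −0.29 ± 0.62, SE, limma).

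Mmp8, the neutrophil collagenase gene of the same run, had 2300, 12227, 12098 and 5040 normalized counts in KO1 to KO4, against 724 and 5352 in WT1 and WT2. KO2 and KO3 were the highest libraries and WT1 the lowest, while KO4 lay just below WT2. The log2 difference was 1.71 ± 1.02 with genotype alone (SE; limma adjusted p = 1.00) and 1.12 ± 0.45 when set-adjusted (limma adjusted p = 0.999). Without WT1 it was 0.27. Set-adjusted DESeq2 without KO4 gave 1.38 ± 0.17 (adjusted p = 1.16e-12), where limma on the same libraries gave 1.39 ± 0.13 (adjusted p = 0.504). Mmp27, the last gene of the run, had 63.7, 115, 118 and 80.7 counts in KO1 to KO4, against 19.9 and 80.6 in WT1 and WT2. WT1 was again the lowest library and KO4 lay beside WT2.

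Mmp12, the gene of macrophage elastase, had 7.19, 402, 556 and 529 normalized counts in KO1 to KO4, against 45.0 and 474 in WT1 and WT2. The low libraries were KO1 and WT1, the 2 libraries that were also low in macrophage markers. Its log2 difference was 0.26 ± 2.01 with genotype alone and −0.96 ± 0.57 when set-adjusted (SE, limma). Mmp12 shares 2.17% of its exon bases with Mmp1b on the other strand. Mmp1a, which the annotation lists as a polymorphic pseudogene, had 27.7 counts in KO1 and 1.01 to 2.57 in KO2 to KO4, against 33.5 in WT1 and 1.15 in WT2. Within 309 kb, Mmp12, Mmp8 and Mmp27 were thus lower in KO1 and WT1 than in each of the other 4 libraries, while Mmp10 and Mmp1a were higher there.

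**Figure D3:**
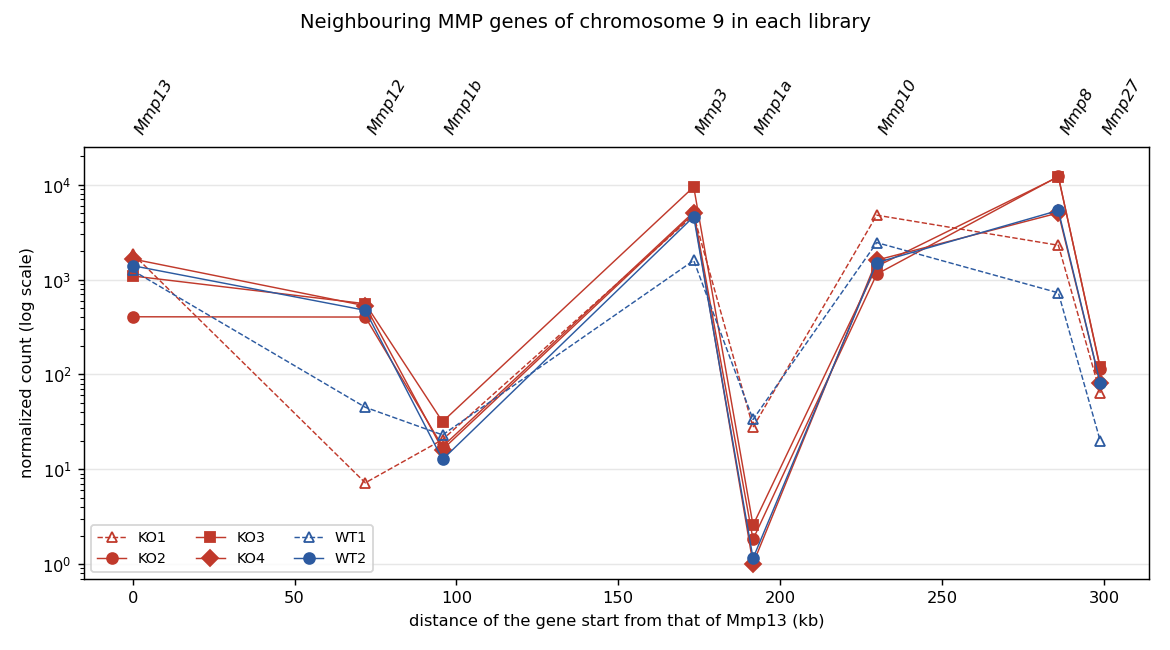
Normalized counts (log axis) of the 8 neighbouring MMP members of chromosome 9, placed by the distance of their start from that of Mmp13 in kb; lines join the values of 1 library, dashed for KO1 and WT1. KO1 and WT1 lie below the other libraries at Mmp12 (7.19 and 45.0) and above them at Mmp1a (27.7 and 33.5).

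The gelatinase genes differed in spread. Mmp2, a gelatinase of stromal cells that Mmp14 activates, had 8387, 9633, 9991 and 15308 normalized counts in KO1 to KO4, against 7446 and 9621 in WT1 and WT2. KO4 stood highest, and KO2 and WT2 were almost level. The log2 difference was 0.32 ± 0.27 (SE, limma, genotype alone). Mmp9, the gelatinase typical of neutrophils and macrophages, had 16.4, 364, 1332 and 540 counts in KO1 to KO4, against 5.23 and 410 in WT1 and WT2. KO3, the library with the highest macrophage marker sum (43427), was the highest. The part of macrophage markers in this value was not tested. The log2 difference of Mmp9 was 2.36 ± 2.26 with genotype alone and 0.98 ± 0.57 when set-adjusted (SE, limma), and −0.66 without WT1.

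Among the membrane-bound MMPs, Mmp14 was the most abundant. Mmp14 encodes the membrane collagenase MT1-MMP and had 22646, 21860, 19539 and 19044 normalized counts in KO1 to KO4, against 25433 and 20913 in WT1 and WT2. KO2 lay between the WT libraries, and the log2 difference was −0.15 ± 0.15 (SE, limma; 95% interval −0.53 to 0.22). Mmp23, which encodes a membrane-anchored MMP without a hemopexin domain, had 401, 543, 686 and 711 counts in KO1 to KO4, against 779 and 756 in WT1 and WT2. The KO libraries lay below both WT libraries, KO1 furthest and KO4 closest. The group means were 585 ± 143 (SD, n = 4) in KO and 767 ± 16.3 (SD, n = 2) in WT. The log2 difference was −0.43 ± 0.26 with genotype alone (SE; limma adjusted p = 1.00) and −0.52 ± 0.21 when set-adjusted (limma adjusted p = 0.999). Mmp23 lies on chromosome 4 (155650655 to 155653384, minus strand), which also carries Zmpste24 (121059237 to 121098241).

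Mmp25, the gene of a leukocyte membrane MMP anchored by a lipid, had 7.19, 5.47, 6.86 and 12.1 normalized counts in KO1 to KO4, against 25.1 and 13.8 in WT1 and WT2. The KO libraries were again below both WT libraries, at 12.1 counts or fewer in each KO library. Mmp17, another lipid-anchored member, had 334, 792, 859 and 949 counts in KO1 to KO4, against 625 and 1122 in WT1 and WT2. The genotypes overlapped, yet each KO library was below the WT library of its set, by log2 −0.90, −0.50, −0.38 and −0.24 in KO1 to KO4. The membrane MMP genes Mmp15 and Mmp16 were low, with 174 to 349 and 58.4 to 279 in KO libraries, against 161 to 381 and 129 to 217 in WT libraries.

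Timp1, Timp2 and Timp3 were each higher in KO1 and WT1 than in the other 4 libraries. Timp1, a secreted inhibitor that also acts as a growth signal, had 40365, 12942, 17297 and 14839 normalized counts in KO1 to KO4, against 40406 and 15957 in WT1 and WT2. KO1 and WT1 were level and far above the other 4 libraries. Its log2 difference was −0.41 ± 0.57 with genotype alone and −0.06 ± 0.13 when set-adjusted (SE, limma).

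Timp2, which inhibits MMPs and helps Mmp14 to activate Mmp2, had 77429, 37806, 30369 and 27369 counts in KO1 to KO4, against 75862 and 30273 in WT1 and WT2. KO1 and WT1 were again the high libraries, and the log2 difference was −0.28 ± 0.55 with genotype alone and 0.05 ± 0.15 when set-adjusted (SE, limma). Timp3, the matrix-bound inhibitor that also blocks several ADAM and ADAMTS proteases, had 86048, 26058, 23236 and 39589 counts in KO1 to KO4, against 54939 and 41777 in WT1 and WT2. It was the highest of all libraries in KO1 and lowest in KO2 and KO3 (log2 difference −0.34 ± 0.55, SE, limma, genotype alone). Timp3 shares 21.3% of its exon bases with Syn3 on the other strand. Timp4 had 2.05, 46.5, 21.4 and 13.1 counts in KO1 to KO4, against 2.09 and 11.5 in WT1 and WT2.

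The summed level of the 4 TIMP genes per kilobase was divided by that of the 19 MMP genes to compare inhibitors with their targets in each library. The ratio was 5.09, 1.46, 1.42 and 1.71 in KO1 to KO4, against 6.23 and 2.03 in WT1 and WT2. Each KO library lay below the WT library of its set, by log2 −0.29, −0.48, −0.52 and −0.24, with a mean of −0.38 ± 0.14 (SD, n = 4, of which 3 share WT2). Across the sets the genotypes overlapped, with KO1 far above WT2. The MMP sum was 14909, 18888, 21250 and 16685 in KO1 to KO4, against 11515 and 15228 in WT1 and WT2. The TIMP sum was 75896, 27485, 30131 and 28599 in KO1 to KO4, against 71721 and 30872 in WT1 and WT2. In KO1 the TIMP sum was thus above that of WT1, and the lower ratio went with a higher MMP sum. Without Timp1, whose merged exons are the shortest of all members, the ratio was 2.04, 0.684, 0.501 and 0.713 in KO1 to KO4, against 2.28 and 0.847 in WT1 and WT2. With counts not divided by length the direction in KO1 turned (4.06 against 3.74 in WT1), and the other 3 KO libraries stayed below WT2. Marker sums of smooth muscle (198643 and 215871), endothelial (84143 and 144356) and mesothelial cells (61241 and 26485) were also highest in KO1 and WT1, and their part in these levels was not tested.

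**Figure D4:**
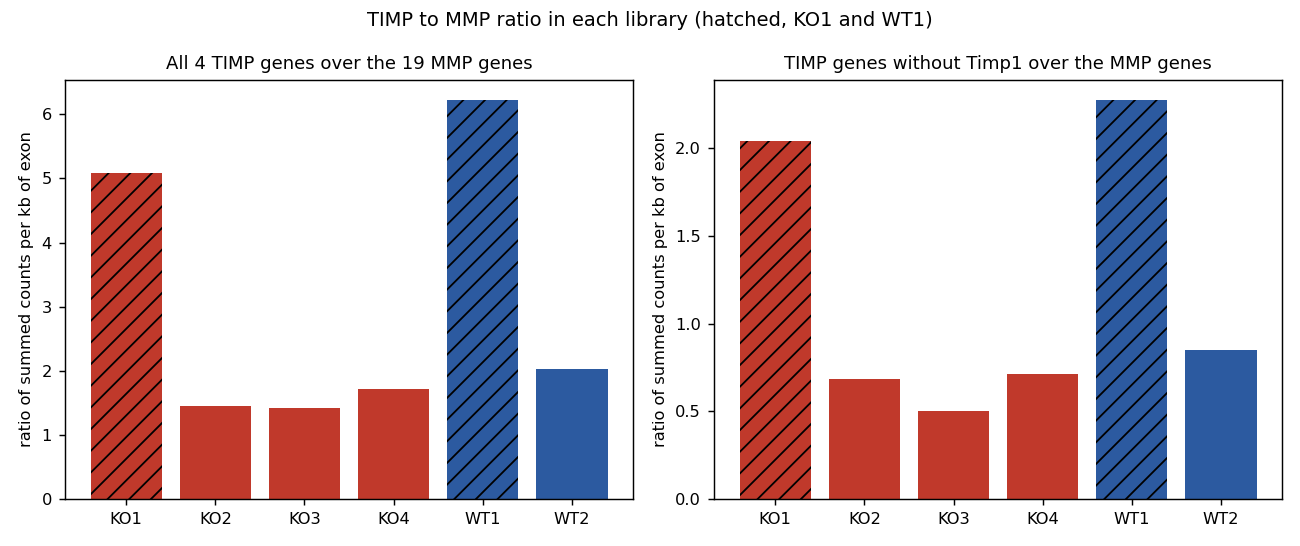
Ratio of the summed normalized counts per kilobase of exon of the TIMP genes to those of the 19 MMP genes, in KO1 to KO4 (red) and WT1 and WT2 (blue), with all 4 TIMP genes (left) and without Timp1 (right); hatching marks KO1 and WT1. Each KO bar is lower than the WT bar of its set, at 5.09 against 6.23 and at 1.42 to 1.71 against 2.03 on the left.

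The main sheddase genes of the ADAM family are Adam10 and Adam17. Adam10, whose protein releases Notch and cadherin ectodomains, had 10779, 8817, 8222 and 8895 normalized counts in KO1 to KO4, against 11265 and 8855 in WT1 and WT2. KO4 and WT2 were level, and the log2 difference was −0.13 ± 0.16 (SE, limma; 95% interval −0.53 to 0.27). Adam17, the gene of the enzyme that releases tumour necrosis factor and ligands of the EGF receptor, had 3527, 4591, 4730 and 4301 counts in KO1 to KO4, against 3622 and 4163 in WT1 and WT2. KO1 was just below WT1 and the other KO libraries just above WT2 (log2 difference 0.13 ± 0.15, SE, limma). Adam17 shares 4.35% of its exon bases with Iah1 on the other strand.

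Adam9, the most abundant ADAM gene, had 41810, 21413, 20673 and 21833 counts in KO1 to KO4, against 38254 and 20010 in WT1 and WT2. Each KO library was slightly above the WT library of its set, by log2 0.05 to 0.13. The difference was −0.13 ± 0.40 with genotype alone and 0.11 ± 0.07 when set-adjusted (log2, SE, limma). Adam19, which sheds neuregulins, had 7184, 8103, 8363 and 6974 counts in KO1 to KO4, against 12550 and 7000 in WT1 and WT2. WT1 alone was high, and the log2 difference was −0.30 ± 0.24 (SE, limma).

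Adam12, a protease gene of muscle and mesenchyme, had 5641, 1332, 1915 and 4500 counts in KO1 to KO4, against 8384 and 4361 in WT1 and WT2. KO2 and KO3 were the low libraries while KO4 lay beside WT2, and the log2 difference was −1.09 ± 0.66 with genotype alone (SE; limma adjusted p = 1.00) and −0.80 ± 0.50 when set-adjusted. Set-adjusted DESeq2 without KO4 gave −1.07 ± 0.28 (adjusted p = 0.0174), where limma on the same libraries gave −1.07 ± 0.27 (adjusted p = 0.638). The Adam12 transcript matched the clone CT030642.2 at 99.7% over 373 nt. Adam22, whose protein has no protease activity and binds LGI proteins at synapses, had 414, 38.3, 84.0 and 259 counts in KO1 to KO4, against 246 and 210 in WT1 and WT2. KO2 and KO3 were again the low libraries (log2 difference −0.73 ± 0.96, SE, limma).

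Adam8, a protease gene of leukocytes, had 135, 2202, 3453 and 1752 counts in KO1 to KO4, against 195 and 2123 in WT1 and WT2. As for Mmp9, the highest value was that of KO3 and the lowest were those of KO1 and WT1. The inactive members Adam11 and Adam23 had 78.1 to 1733 and 1127 to 4383 counts in KO libraries, against 77.5 to 363 and 1249 to 2857 in WT libraries. Adam32, of the germ cell group, had 17.5, 18.2, 7.72 and 13.1 counts in KO1 to KO4, against 25.1 and 20.7 in WT1 and WT2. All KO libraries were lower than both WT libraries. Adam1a, Adam3 and Adam5, of the same group, stayed at 7.30 to 63.7 counts in KO and 12.7 to 51.3 in WT libraries. Adam1a shares 63.7% of its exon bases with Gm42878, Mapkapk5 and Tmem116, so its reads may be shared.

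Of the ADAMTS proteoglycanases, which cut aggrecan and versican, Adamts1 was the most abundant. Adamts1 had 27807, 85881, 62685 and 36216 normalized counts in KO1 to KO4, against 20583 and 43503 in WT1 and WT2. KO2 and KO3 were the highest libraries, and KO4 lay below WT2 (log2 difference 0.69 ± 0.55, SE, limma, genotype alone). Adamts5, the main aggrecanase gene of mouse cartilage, had 6864, 8909, 8191 and 7206 counts in KO1 to KO4, against 3982 and 7065 in WT1 and WT2. WT1 was the lowest library and KO4 close to WT2. The log2 difference was 0.55 ± 0.25 with genotype alone (SE; limma adjusted p = 1.00) and 0.43 ± 0.16 when set-adjusted (limma adjusted p = 0.999), and it was 0.13 without WT1.

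Adamts15, another proteoglycanase gene, had 10.3, 6095, 4161 and 1584 counts in KO1 to KO4, against 7.33 and 2110 in WT1 and WT2. KO1 and WT1 were far below the other libraries and KO2 was the highest (log2 difference 2.63 ± 3.27 with genotype alone and 0.59 ± 0.56 when set-adjusted, SE, limma). Without WT1 the difference was −1.36. Set-adjusted DESeq2 without KO4 gave 1.16 ± 0.32 (adjusted p = 0.0353), where limma on the same libraries gave 0.90 ± 0.28 (adjusted p = 0.687). Adamts9 followed the same order of sets, with 2967 in KO1 and 8778 to 9690 in KO2 to KO4, against 1573 in WT1 and 9497 in WT2.

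The procollagen N-proteinase genes are Adamts2, Adamts3 and Adamts14. Their proteins remove the amino-terminal propeptide of collagen precursors, or, in the case of ADAMTS3, activate the lymphatic growth factor VEGF-C. Adamts2 had 11320, 26897, 24538 and 14537 counts in KO1 to KO4, against 14727 and 17443 in WT1 and WT2. KO2 and KO3 were above WT2, but KO4 was below it and KO1 below WT1 (log2 difference 0.18 ± 0.39, SE, limma). Adamts3 had 63.7, 870, 610 and 345 counts in KO1 to KO4, against 32.5 and 263 in WT1 and WT2. Each KO library was above the WT library of its set, by log2 0.95, 1.72, 1.21 and 0.39. The difference was 1.81 ± 1.27 with genotype alone (SE; limma adjusted p = 1.00) and 1.05 ± 0.39 when set-adjusted (limma adjusted p = 0.999), and 0.33 without WT1. Set-adjusted DESeq2 without KO4 gave 1.31 ± 0.32 (adjusted p = 0.00603), where limma on the same libraries gave 1.25 ± 0.24 (adjusted p = 0.569). Adamts14 had 1124, 286, 460 and 588 counts in KO1 to KO4, against 1577 and 533 in WT1 and WT2. KO1 was below WT1 and KO4 slightly above WT2 (log2 difference −0.75 ± 0.65, SE, limma).

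**Figure D5:**
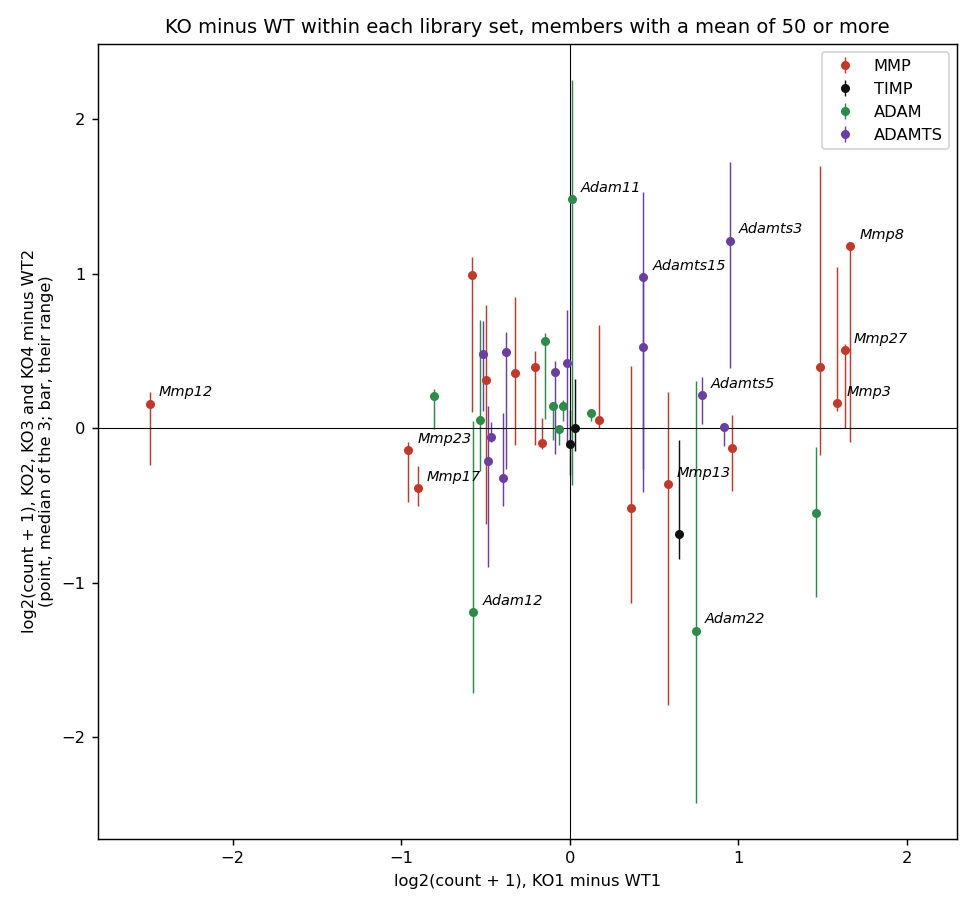
Difference of log2(count + 1) of the members with a mean of at least 50, KO1 minus WT1 on the horizontal axis and KO2, KO3 and KO4 minus WT2 on the vertical axis (point, median of the 3; bar, their range). Adam9, Mmp2, Adamts5, Mmp3, Adamts3 and Mmp27 lie above 0 on both axes with the whole bar. Mmp17 and Mmp23 lie below 0 on both with the whole bar, and Mmp12 lies at −2.49 on the horizontal axis.

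KO1 and WT1 together lay outside the range of the other 4 libraries in 34 of 51 members (66.7%, against 63.4% of all tested genes). They were higher in 14 (27.5%, against 30.7%) and lower in 20 (39.2%, against 32.7%). By family, 3 of 4 TIMP genes were higher there and 1 was lower. Of 19 MMP genes 4 were higher and 8 lower, and of 13 ADAMTS genes 3 were higher and 7 lower. Of 15 ADAM genes 4 were higher and 4 lower. The sets were defined from the same table, so no test is given. In Adamts15 and Mmp9, 3.92% of the members, KO1 and WT1 were both at least 10-fold below every other library, against 1.13% of all tested genes.

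Genes that activate or restrain these proteases were taken from a separate list of 45 genes, among them plasminogen activators, proprotein convertases, the membrane-anchored MMP inhibitor gene Reck and partners of ADAM10 and ADAM17. Of these, 38 were tested. Limma called 0 of them, with 18 above 0 and 20 below, and 0 reached an unadjusted p under 0.05 (against 0.939% of all tested genes). EdgeR and DESeq2 with genotype alone, and set-adjusted limma and edgeR, called 0 as well. Set-adjusted, 4 of the 38 reached an unadjusted p under 0.05 in limma (10.5%, against 3.51% of all tested genes and 11.8% of the members). On 5 libraries 7 reached it in set-adjusted edgeR (18.4%, against 6.88% and 23.5%). In set-adjusted DESeq2 10 reached it (26.3%, against 5.75% and 25.5%). Set-adjusted DESeq2 without KO4 called 2, Pcsk5 and Sdc4 (against 0.939% of all tested genes). On the same 5 libraries set-adjusted limma and edgeR called neither, at limma adjusted p = 0.504 and 0.612 and edgeR adjusted p = 0.551 and 0.624. Pcsk5, a proprotein convertase gene, had 196, 3227, 2199 and 646 counts in KO1 to KO4, against 77.5 and 1128 in WT1 and WT2. Sdc4, a syndecan gene, had 31844, 27959, 26387 and 18389 counts in KO1 to KO4, against 23905 and 21551 in WT1 and WT2. In both, KO4 was below WT2 while KO2 and KO3 were above it. Abundant genes of the list were Thbs1, the thrombospondin-1 gene, and Lrp1, which encodes an endocytic receptor that clears MMPs and TIMPs. Lrp1 had 72815, 121423, 118255 and 100944 counts in KO1 to KO4, against 78914 and 103367 in WT1 and WT2, with KO1 and WT1 the low ones. Thbs1 had 340887, 244597, 201625 and 150848 counts in KO1 to KO4, against 356876 and 182040 in WT1 and WT2. All 4 KO libraries lay above the WT library of their set in 4 of the 38 genes (Serpine2, A2m, Adamtsl3 and Pcolce2; 10.5%, against 10.1% of all tested genes) and below it in 4 (Plau, Plaur, Reck and Tspan14; 10.5%, against 10.8%). Plau, the urokinase gene whose product starts the plasmin cascade that activates MMP precursors, had 7029, 2469, 2452 and 1858 counts in KO1 to KO4, against 12312 and 2669 in WT1 and WT2. Its receptor gene Plaur had 5622, 1952, 1897 and 2075 counts in KO1 to KO4, against 6032 and 2629 in WT1 and WT2.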

How the data were processed

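Poly(A) RNA of 6 primary cultures was sequenced. The authors deposited a normalized count signal, read counts divided by a size factor per library. Per the submitters' processing notes, Trimmomatic 0.36, STAR 2.6.0c (GRCm38.p6) and featureCounts of Subread 1.6.1 were used. The series design text names Trimmomatic 0.32, STAR 2.4.2a, HTSeq with GENCODE M17 and DESeq2 1.10.1. The sources used here do not give which of these made the table or whether strand was used.

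In 5 libraries 100% of values were whole multiples of the value of 1 read (tolerance 1e-06). KO4 was not accepted as recovered reads because its value of 1 read lay too close to 1, so count-based fits leave KO4 out. Its low values were evenly spaced all the same, such as 1.009 in Mmp24, 2.019 in Adam18 and 3.028 in Adam21. Counting error at a mean of 10 corresponds to 31.6% (coefficient of variation). Libraries of a genotype differed beyond sampling noise (chi-square per gene 28.4 to 435) and were kept apart.

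The main test was limma 3.58.1 (R 4.3.3; mean trend) on log2(count + 1), with genotype alone, over 15229 genes, Benjamini-Hochberg adjusted; it understates folds of low genes. Alternatives were edgeR 4.0.16 and DESeq2 1.42.0 on recovered reads (genotype alone: 0 and 6 genes called; with the library set: 1 and 143), other pseudocounts, filters and scaling, a block for the number in the titles, and fits lacking 1 library. The limma, edgeR and DESeq2 fits, each with genotype alone and set-adjusted, were tried on simulated data, and the other alternatives were not. Library sets are the 2 branches of an average-linkage tree on 1 minus r. Lengths are merged exons of GENCODE M21, and near copies were sought with BLAST 2.17.0 (at least 95% over 100 nt), which found them for 16 of 51 members.

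The members and lists were chosen with earlier results of these data known. Named members were the 3 most abundant MMP, ADAM and ADAMTS genes, the TIMPs, listed enzymes, members without overlap or called in any fit, and the 3 largest differences per direction (mean at least 50). Mmp17, Mmp27, Mmp15, Mmp16, Mmp1a, Adam8, Adam11, Adam23, Adamts9, Plau, Plaur and the other control genes with the same direction in all 4 KO libraries were named after their values were seen. Adamts13, a listed gene, had 1 read in all. The values of 1 gene of the control list are not reported here.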

Additional observations from a re-analysis of the deposited data

Results flagged for a closer look

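In 5 of 28 groups of KO libraries that were checked, 1 library lay far from the other 3 by Dixon's gap ratio (above its 95% critical value). The nominal rate of 1 in 20 holds for libraries drawn alike, whereas KO1 belongs to another library set than KO2 to KO4. The sets did not overlap in 63.4% of all tested genes. The share of all tested genes flagged by this rule was not computed, so the 5 groups are not read as an excess. Timp1 also enters the TIMP to MMP ratio, so the groups are not independent. In Adam9 (ratio 0.945), Timp1 (0.841), Mmp10 (0.873) and the TIMP to MMP ratio (0.919) this library was KO1, which belongs to the same library set as WT1. WT1 lay on the same side of the other 4 libraries as KO1 in all 4 cases. In Mmp3 (0.920) it was KO3, at 9488 normalized counts beside 4777 to 5155 in KO1, KO2 and KO4. KO3 also had the highest macrophage marker sum, 43427; its part in the Mmp3 value was not tested.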

How the results depend on the processing

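Over all genes limma called 1, of the members 0 and of the protease control list 0. Set-adjusted DESeq2 without KO4 gave 143, 4 and 2; set-adjusted limma without KO4, added after seeing the data, gave 1, 0 and 0. The 143, 4 and 2 come from a fit without KO4, and no count-based fit with KO4 is given to compare. The other alternatives called 0 members and 0 genes of the control list. Over all genes the count was 2 with a pseudocount of 5, 0 with edgeR, 6 with DESeq2, 0 with the replicate block (781 at an unadjusted p under 0.05), 0 in the larger library set alone (302) and 0 to 2 with 1 library left out; the counts of 0 arose without KO2, KO3 or KO4 (74, 52 and 126 at an unadjusted p under 0.05). The median of the members was 0.09, and −0.10 to 0.14 with 1 library left out, the lowest without WT2.

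Of 24 named members, 12 changed sign somewhere, 5 of them outside the fits with a library left out; the cause was not tested. Values are given for the block, then for the set-adjusted fits in limma, edgeR, DESeq2 and limma without KO4. Timp2 (−0.28) was 0.18, 0.048, 0.12, 0.11 and 0.11, and 0.060 in the larger set alone. Adam9 (−0.13) was 0.11, 0.11, 0.10, 0.096 and 0.096, and 0.090 in the larger set. Mmp10 (−0.05) was 0.28, 0.29, 0.26, 0.24 and 0.26, and with genotype alone 0.30 in edgeR and 0.30 in DESeq2. Mmp12 (0.26) was −1.36, −0.96, −0.66, −0.96 and −1.07. Adam19 (−0.30) was 0.15 in the larger set alone. With 1 library left out, Timp2 ran from −0.94 to 0.38, Adam9 from −0.60 to 0.33, Timp1 from −1.08 to 0.26, Adamts2 from −0.0094 to 0.41, Adam10 from −0.30 to 0.044 and Adam19 from −0.72 to 0.12. Adamts15 ran from −1.36 to 6.62, Mmp10 from −0.50 to 0.30, Mmp13 from −0.55 to 0.18, Adamts14 from −1.54 to 0.026, Mmp9 from −0.66 to 5.38 and Mmp12 from −1.42 to 1.94. With a WT library left out, the lone WT library is assumed to vary like the KO libraries.

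The title numbers pair 2 WT with 2 KO libraries; the deviations from the group means correlated at r = 0.841 for number 1 and 0.562 for number 2 across genes, and with 2 pairs this is no proof of pairing. With the TIMP to MMP ratio, 2 alternatives chosen after seeing the data gave a mean log2 of −0.37 without Timp1 and −0.29 without division by length, beside −0.38. Counting intervals at low counts limit Mmp25, Adam32 and Timp4.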
